A study of Mus musculus with 64 samples.

Results

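The 10 genes described here encode neuropeptide precursors whose mRNAs are known from earlier work to move after seizures: *Npy*, *Gal*, *Penk*, *Pdyn*, *Tac1*, *Tac2*, *Cartpt*, *Crh*, *Nts* and *Cck*. They were listed by gene name, and all 10 were present among the 18432 genes of the deposited table. The list was chosen with earlier results of these data known, so its counts beside those of all genes are descriptive only. The 64 libraries came from frontal cortex and hippocampus of knock-in (KI) mice carrying 1 R87C allele of *Cyfip2* (Cyfip2+/R87C), a model of West syndrome, and of their wild-type siblings (WT), all C57BL/6N, sampled at postnatal week (PWK) 1, 7, 14 and 28, with 4 libraries for each genotype, region and age. Both regions were dissected from each brain, so the cortex and hippocampus libraries of a group come from the same 4 mice. The allele is carried in the germ line, so no cell type or promoter restricts it, and the gene-level table holds no read of the mutated codon, so genotype could not be checked in it. KI mice can die in adulthood, so those sampled at PWK 28 are survivors.

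Neuropeptides are cut from larger precursors, packed with granins into dense-core granules and released mainly when neurons fire at high rates, after which they act on G protein-coupled receptors. In cortex and hippocampus several of them are made by GABAergic interneurons (neuropeptide Y, cholecystokinin, tachykinins) and others by granule cells of the dentate gyrus (enkephalin, dynorphin). In rodent epilepsy models, neuropeptide Y appears in granule cells that normally hold little of it, and neuropeptide Y, galanin and dynorphin are known to dampen excitatory transmission.

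Values are the read counts scaled by the authors between libraries (normalized value), and differences are log2(value + 1) of KI minus WT, tested with limma across all genes and called at an adjusted p under 0.05. Each library summed to 29.2 to 32.6 M after that scaling, so the sequencing depth itself is not visible. A few libraries stood apart in tissue markers. The summed value of 10 markers of striatal neurons was 18047 in WT cortex replicate 1 at PWK 1 and 23182 in KI cortex replicate 2 at PWK 14, against up to 7818 in the WT cortex at PWK 14. At PWK 28 it was 8453 to 14096 in the WT cortex and 11476 to 15050 in the KI cortex. The sum of 5 markers of thalamus and habenula was lower in every KI hippocampus at the late ages. At PWK 14 it was 2805 to 3781 in WT and 1772 to 2621 in KI. At PWK 28 it was 3180 to 3792 in WT and 2335 to 2865 in KI. In the cortex the genotypes overlapped at both ages, and the part of these markers in the results was not tested. The sum of 6 choroid plexus markers ran from 1970 to 103472 within the WT hippocampus at PWK 14. These were bulk tissues, in which fewer cells of a type and less RNA per cell cannot be told apart. Nothing in the labels gives a sequencing batch, so age and batch cannot be told apart in any comparison across ages.

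At PWK 1 and 7 none of the 10 genes was called between KI and WT in either region, where 0.00546% (cortex, PWK 1), 0.00545% (cortex, PWK 7), 0.0109% (hippocampus, PWK 1) and 0.0218% (hippocampus, PWK 7) of all genes were called. At an unadjusted p under 0.05, limma gave 0 and 3 of the 10 in the cortex, against 5.27% and 8.05% of all genes at that threshold, and 2 and 1 in the hippocampus, against 5.46% and 6.22%. At PWK 14, *Npy*, *Gal* and *Pdyn* rose and *Cartpt* fell in the KI cortex, 4 of 10 genes against 5.18% of all genes tested (2.48% higher and 2.7% lower). In the KI hippocampus at that age *Npy*, *Gal*, *Penk* and *Tac2* rose and *Nts* and *Cck* fell, 6 of 10 against 15.6% (7.64% higher and 7.95% lower). At PWK 28 the calls in the cortex were 7 of 10 against 22.2% (12.2% higher and 10% lower), with *Npy*, *Gal*, *Pdyn*, *Tac2* and *Cck* higher and *Cartpt* and *Crh* lower. In the hippocampus they were 6 of 10 against 15.8% (8.92% higher and 6.91% lower), with *Npy*, *Gal*, *Penk* and *Tac2* higher and *Cartpt* and *Cck* lower. The median difference of the 10 genes was 0.09 at PWK 14 and 0.30 at PWK 28 in the cortex, and 0.60 and 0.28 in the hippocampus, where the median of all genes lay between -0.00 and 0.01.

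**Figure D1:**
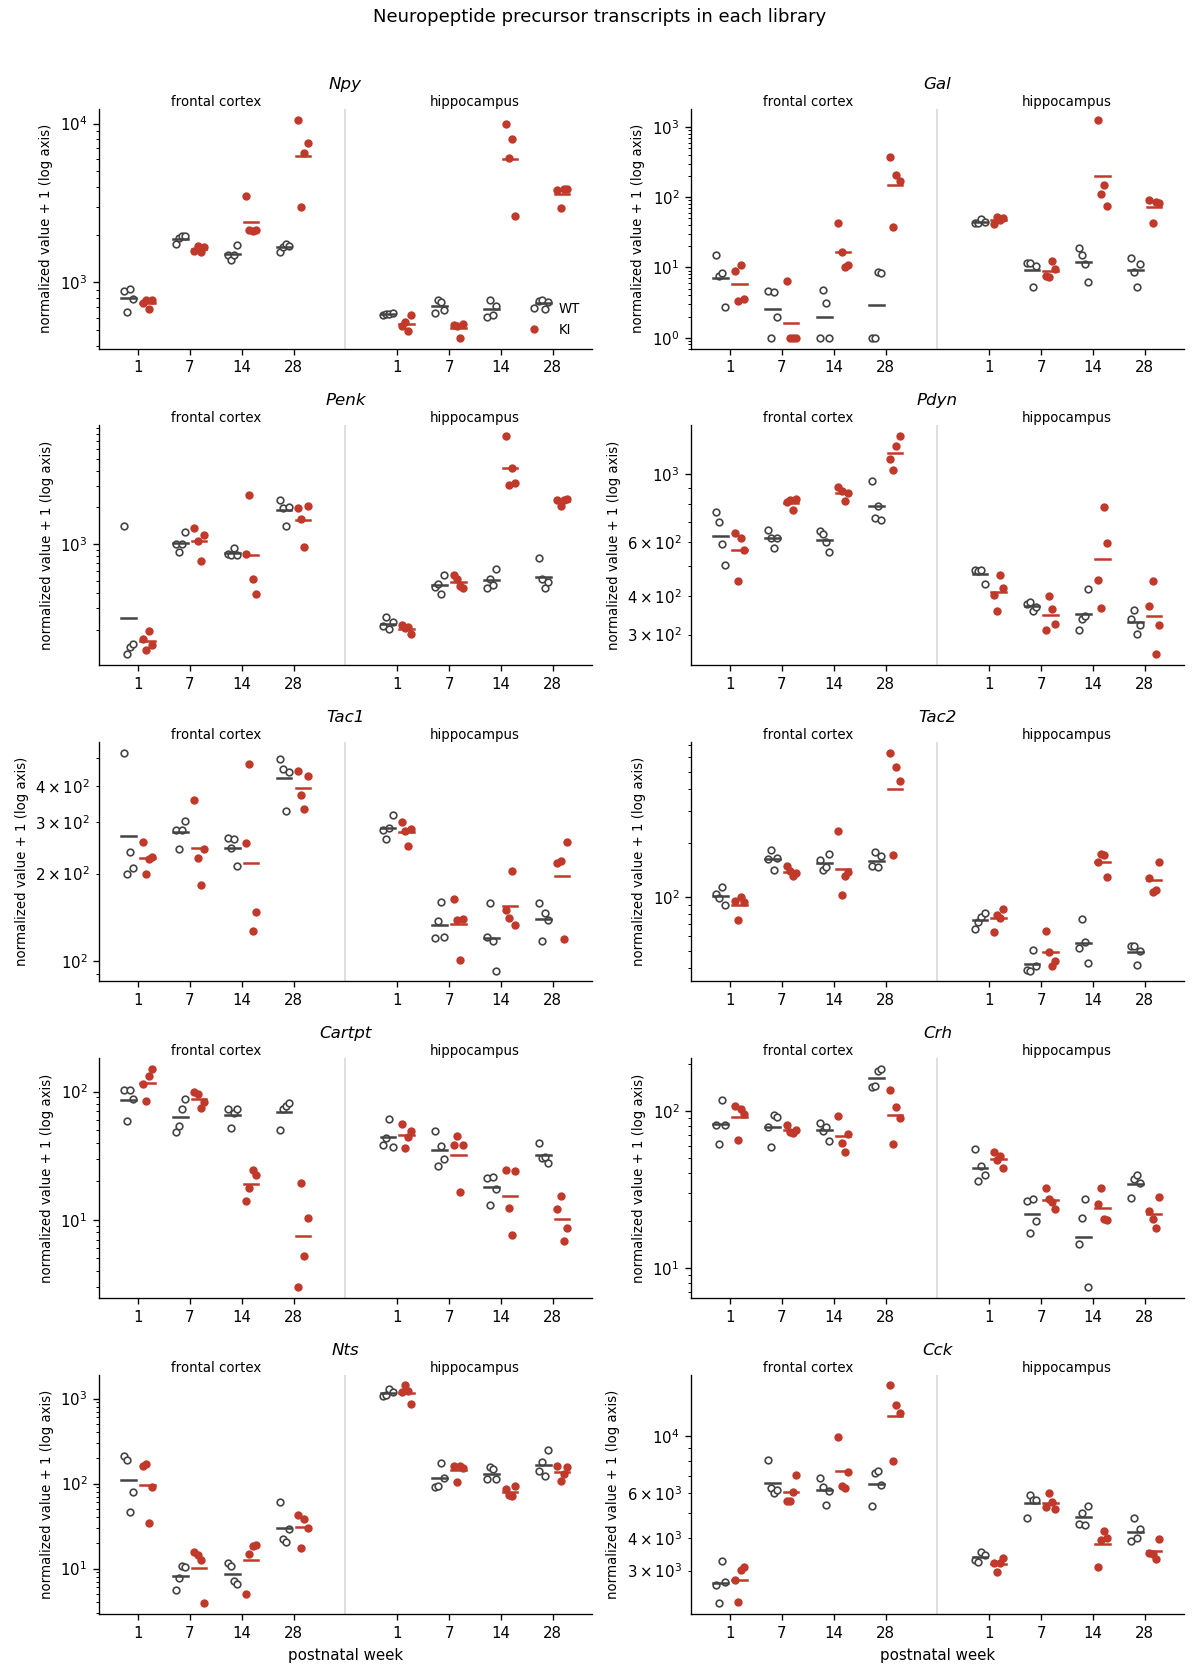
Normalized value plus 1 (log axis) of each of the 10 genes in every library, by region and postnatal week, with WT as open and KI as filled points and a bar at the geometric mean of each group. KI points leave the WT range at PWK 14 and 28 in the panels of *Npy*, *Gal*, *Penk* (hippocampus), *Tac2* (hippocampus) and *Cartpt* (cortex), for example *Npy* at 2922 to 3889 in the KI hippocampus against 683 to 769 in WT at PWK 28.

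*Npy*, the precursor of neuropeptide Y (ENSMUSG00000029819, GRCm38 chr6:49822710-49829507, plus strand), rose in both regions at both late ages. In the WT hippocampus at PWK 14 its 4 normalized values were 608, 778, 626 and 707, and in KI they were 9967, 6059, 7972 and 2614. Every KI library lay above every WT library, and the KI libraries themselves ranged widely, from 2614 to 9967. The difference was 3.14 ± 0.34 (log2, SE, n = 4 per group), a fold of 8.79 with an adjusted p of 0.0011. At PWK 28 the WT hippocampus gave 765, 769, 683 and 755 and the KI hippocampus 3823, 2922, 3889 and 3879. The groups again did not overlap, and the difference was 2.28 ± 0.09, a fold of 4.85 (adjusted p = 1.97e-07).

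In the cortex the change in *Npy* at PWK 14 was smaller. WT libraries held 1484, 1384, 1481 and 1721 and KI libraries 3477, 2140, 2090 and 2121, so that replicate 1 stood well above the other KI libraries while all 4 were above WT. The difference was 0.66 ± 0.15, a fold of 1.58 (adjusted p = 0.0293), and it was not called without KI replicate 2 or WT replicate 1, 2 or 3, where the adjusted p lay between 0.0515 and 0.0867. By PWK 28 the WT cortex gave 1548, 1680, 1737 and 1684 and the KI cortex 10571, 2990, 6489 and 7590. The lowest KI library was thus still far above the highest WT library, with a difference of 1.92 ± 0.29, a fold of 3.78 (adjusted p = 0.00166). Before the late ages no difference was called, although every KI library was below every WT library in the hippocampus at PWK 1 and 7 and in the cortex at PWK 7. These differences were -0.20, -0.46 and -0.22, with adjusted p-values of 0.879, 0.438 and 0.256.

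*Gal*, the precursor of galanin (ENSMUSG00000024907, chr19:3409915-3414544, minus strand), was near the floor of the table in the WT cortex. Its values there at PWK 14 were 0, 3.84, 2.13 and 0, and in KI they were 42.2, 15.9, 9.15 and 9.67. Each KI library was above each WT library, and the difference of 3.09 ± 0.65 (adjusted p = 0.0231) was not called without KI replicate 2 or WT replicate 1 or 4, with an adjusted p of up to 0.0719. At PWK 28 the WT cortex gave 0, 0, 7.50 and 7.41 and the KI cortex 372, 37.0, 206 and 167. Differences of so low a gene on the log2(value + 1) scale depend on the added 1 and carry wide intervals, 3.74 to 7.62 in the cortex at PWK 28.

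*Gal* was better measured in the hippocampus, where WT values at PWK 14 were 17.7, 13.9, 10.2 and 5.28. KI values were 1274, 109, 148 and 74.4, all above WT, with replicate 1 more than the other 3 together. The difference was 4.08 ± 0.79, a fold of 16.9 (adjusted p = 0.00969). At PWK 28 WT libraries gave 12.5, 7.58, 4.30 and 10.2 and KI libraries 90.5, 41.6, 85.3 and 82.7, a difference of 3.00 ± 0.35 and a fold of 8.00 (adjusted p = 0.00031).

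**Figure D2:**
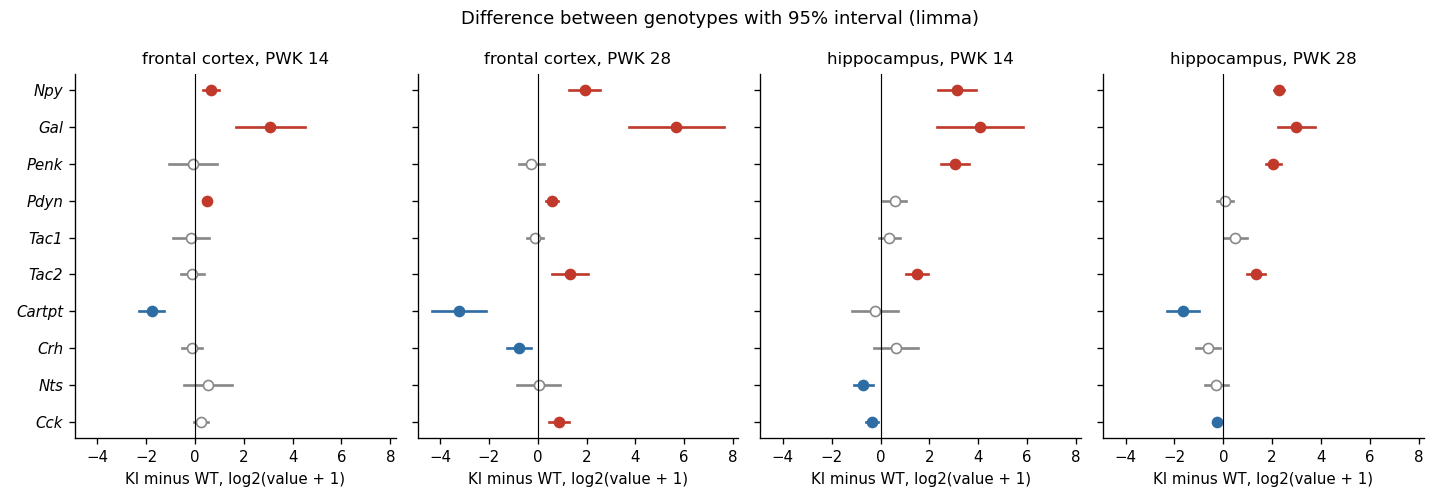
KI minus WT difference (log2 of normalized value + 1) of the 10 genes with its 95% interval in each region at PWK 14 and 28, with red for genes called higher, blue for genes called lower and open grey for genes not called (limma, adjusted p under 0.05, n = 4 per group). *Npy* and *Gal* are red in all 4 panels, *Penk* in the hippocampus panels (3.05 and 2.05), and *Cartpt* is blue in all panels but the hippocampus at PWK 14.

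*Npy*, *Gal* and *Tac2* rose while *Cartpt* fell, so the sequence before the RefSeq start of each is given for the cAMP response element (CRE), a motif read by activity-dependent factors. Sequences are from RefSeq on GRCm38.p6, 5′ to 3′ on the gene's strand, in lower case, with matches to the CRE TGACGTCA or its core TGACG in capitals. The windows are chr6:49822460-49822709 (plus) for *Npy*, chr19:3414515-3414794 (minus) for *Gal*, chr10:127724228-127724477 (plus) for *Tac2* and chr13:99900777-99900806 (minus) for *Cartpt*. The first 3 begin 250 bases before the RefSeq start, the *Gal* window also takes in the first 30 bases after it, and the *Cartpt* stretch of 30 bases is centred near the match. The *Cartpt* stretch lies before its RefSeq start but inside the GENCODE gene given further on, whose longer transcript starts upstream.
Npy: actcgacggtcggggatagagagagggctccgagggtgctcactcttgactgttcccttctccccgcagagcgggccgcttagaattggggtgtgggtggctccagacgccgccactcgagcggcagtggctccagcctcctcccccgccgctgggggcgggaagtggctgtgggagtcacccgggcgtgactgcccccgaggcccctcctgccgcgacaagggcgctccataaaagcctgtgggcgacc
Gal: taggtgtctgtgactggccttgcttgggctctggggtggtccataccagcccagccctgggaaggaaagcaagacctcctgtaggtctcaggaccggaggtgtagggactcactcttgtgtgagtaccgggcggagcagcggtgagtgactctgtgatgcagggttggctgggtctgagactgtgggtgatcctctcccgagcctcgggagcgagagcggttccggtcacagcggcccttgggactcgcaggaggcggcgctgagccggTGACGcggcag
Tac2: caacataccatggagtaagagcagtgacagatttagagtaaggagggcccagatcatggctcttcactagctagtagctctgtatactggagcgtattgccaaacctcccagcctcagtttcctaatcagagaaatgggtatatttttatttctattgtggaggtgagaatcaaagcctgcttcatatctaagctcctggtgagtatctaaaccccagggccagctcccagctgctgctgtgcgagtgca
Cartpt: ccggcgggcatTGACGTCAaacggcagcgg

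Of the 10 genes, 8 matched a RefSeq window, which ran from 250 bases before to 50 after the start. *Penk* and *Crh* had no window and were not searched. Both strands were searched for TGACGTCA, its core TGACG and the AP-1 motif TGANTCA, and these were found in 1.79%, 20.8% and 7.81% of all 32851 windows. Positions count from the RefSeq start, which differs from the GENCODE gene start for *Pdyn*, *Tac1*, *Cartpt* and *Nts*. The full element was found in *Cartpt* alone among the 8, from -112 to -105, and both core matches of that window lie within it. The core occurred in *Gal* (20 to 24 after the start), *Tac1* (-197 to -193 and -43 to -39), *Nts* (-166 to -162) and *Cck* (-47 to -43), and the AP-1 motif in *Nts* (-207 to -201). *Npy*, *Pdyn* and *Tac2* held none of the 3 in their windows, which says nothing of sites elsewhere.

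Of the opioid precursors, *Penk* (preproenkephalin, ENSMUSG00000045573, chr4:4133531-4138819, minus strand) rose in the hippocampus and was not called in the cortex. Hippocampal WT values at PWK 14 were 438, 514, 462 and 622, and KI values were 7655, 3053, 4168 and 3160. The lowest KI library was above the highest WT library by several fold, and the difference was 3.05 ± 0.26, a fold of 8.29 (adjusted p = 0.000405). At PWK 28 WT libraries held 774, 514, 440 and 486 and KI libraries 2312, 2040, 2291 and 2362, with a difference of 2.05 ± 0.14, a fold of 4.15 (adjusted p = 1.34e-05). *Drd1*, a dopamine receptor gene of striatal neurons that is also known in granule cells, was called higher beside it, by 2.07 and 1.78. Of the 10 striatal markers 2 were higher and 0 lower at PWK 14, against 15.6% of all genes called. At PWK 28, 2 of these markers were higher and 2 lower, against 15.8%. Their sum was 4628 to 5863 in WT and 4146 to 7456 in KI at PWK 14, and 5061 to 5683 in WT and 5587 to 6955 in KI at PWK 28, and the part of these markers in the rise of *Penk* was not tested.

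Cortical *Penk* moved between libraries with the striatal markers. At PWK 14 WT values were 832, 821, 936 and 810 and KI values 825, 2541, 522 and 386, and KI replicate 2, at 2541, was the library with the highest striatal sum, 23182. At PWK 1 WT replicate 1, with a striatal sum of 18047, held 1418 where the other 3 held 125 to 150. The KI minus WT difference was -0.07 (95% interval -1.05 to 0.91, adjusted p = 0.951) at PWK 14 and -0.27 (-0.77 to 0.24, adjusted p = 0.444) at PWK 28. Without KI replicate 2 the *Penk* difference at PWK 14 was -0.62 (adjusted p = 0.144). *Tac1* was also highest in these libraries, at 476 in KI replicate 2 at PWK 14 and at 521 in WT replicate 1 at PWK 1.

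**Figure D3:**
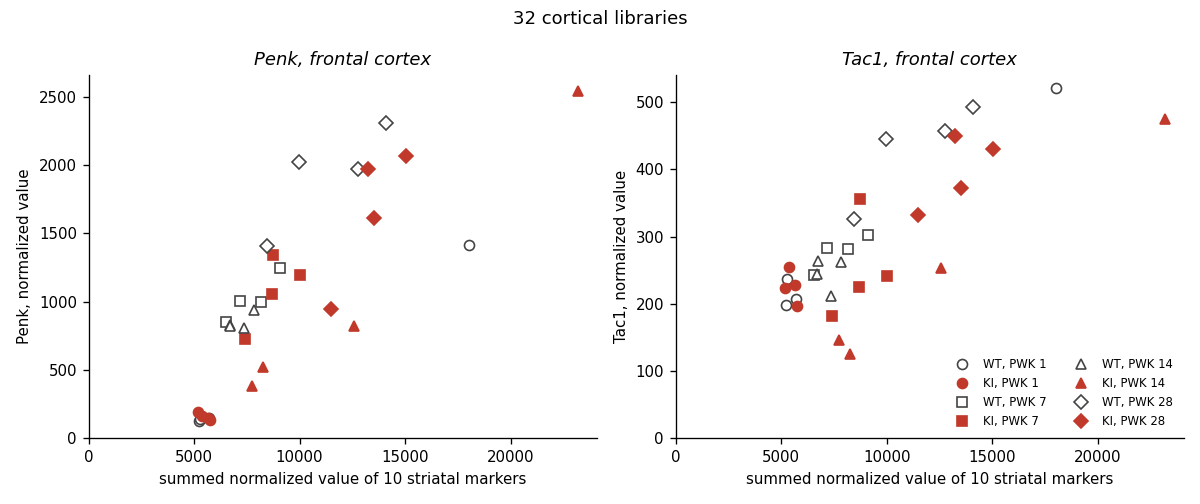
Normalized value of *Penk* and of *Tac1* against the summed value of 10 striatal markers in the 32 cortical libraries. KI replicate 2 at PWK 14 (sum 23182, *Penk* 2541, *Tac1* 476) and WT replicate 1 at PWK 1 (sum 18047, *Penk* 1418, *Tac1* 521) lie to the right of the other libraries of their groups.

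*Pdyn* (preprodynorphin, ENSMUSG00000027400, chr2:129686565-129699844, minus strand) was called in the cortex at both late ages. Its WT cortex values at PWK 14 were 650, 635, 600 and 555, and the KI values 908, 881, 815 and 864. No KI library overlapped the WT range, and the difference was 0.51 ± 0.07, a fold of 1.42 (adjusted p = 0.0043). At PWK 28 WT libraries gave 946, 720, 786 and 705 and KI libraries 1115, 1027, 1232 and 1328, a difference of 0.58 ± 0.11 and a fold of 1.49 (adjusted p = 0.00496). In the hippocampus WT values at PWK 14 were 310, 336, 343 and 421 and KI values 449, 366, 781 and 596, an overlap of single libraries. That difference of 0.59 had an adjusted p of 0.0934 and was called without KI replicate 2 (adjusted p = 0.0334), and at PWK 28 the difference was 0.06 (adjusted p = 0.829). The *Pdyn* effect was not called different between regions, with hippocampus minus cortex at 0.08 (adjusted p = 0.902) at PWK 14 and -0.52 (adjusted p = 0.154) at PWK 28. In 1 fit of all 64 libraries the hippocampal rise at PWK 14 was called (adjusted p = 0.000739). At PWK 7 all 4 KI cortices, at 760 to 830, were already above the WT cortices, at 575 to 658, but the difference of 0.39 had an adjusted p of 0.104.

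The tachykinin precursors behaved differently from each other. *Tac1*, which encodes substance P and neurokinin A (ENSMUSG00000061762, chr6:7554879-7565834, plus strand), was called in no KI to WT comparison. Hippocampal WT values at PWK 28 were 157, 116, 146 and 137 and KI values 217, 220, 118 and 256, with replicate 3 inside the WT range. The difference of 0.49 (95% interval 0.02 to 0.97) had an adjusted p of 0.147 and was 0.73 without KI replicate 3 (adjusted p = 0.00678).

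*Tac2*, which encodes neurokinin B (ENSMUSG00000025400, chr10:127724478-127731768, plus strand), rose in the hippocampus. WT values there at PWK 14 were 50.4, 74.0, 54.6 and 41.4 and KI values 155, 173, 170 and 128, with no overlap. The difference was 1.51 ± 0.20, a fold of 2.85 (adjusted p = 0.0021), and at PWK 28 it was 1.33 ± 0.17, a fold of 2.52 (adjusted p = 0.000549), from 40.6 to 52.0 in WT and 106 to 155 in KI. The cortex differed by age. At PWK 14 WT values were 160, 140, 146 and 172 and KI values 231, 101, 130 and 136, a difference of -0.11 (95% interval -0.59 to 0.36, adjusted p = 0.822). At PWK 28 WT values were 147, 176, 145 and 167 and KI values 638, 169, 530 and 440, so that KI replicate 2 lay within the WT range and the other 3 far above it. The difference was 1.33 ± 0.33, a fold of 2.51 (adjusted p = 0.0178), and without KI replicate 3 its adjusted p was 0.0525.

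*Cartpt*, the precursor of the CART peptides (ENSMUSG00000021647, chr13:99898489-99901091, minus strand), fell. WT cortex values at PWK 14 were 71.7, 50.6, 66.8 and 72.2, and KI values 12.9, 16.6, 23.4 and 21.4. All KI libraries were below all WT libraries, with a difference of -1.78 ± 0.23, a fold of 0.291 (adjusted p = 0.00308). At PWK 28 WT libraries gave 49.4, 72.1, 76.0 and 80.8 and KI libraries 1.98, 18.2, 4.22 and 9.24, a fold of 0.107. In the hippocampus the gene overlapped at PWK 14, with 12.0 to 20.5 in WT and 6.60 to 23.5 in KI and a difference of -0.22 (95% interval -1.15 to 0.71, adjusted p = 0.757). At PWK 28 WT values were 38.8, 29.1, 29.7 and 26.7 and KI values 11.1, 14.2, 5.77 and 7.64, a difference of -1.64 ± 0.30 and a fold of 0.321 (adjusted p = 0.00442).

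*Crh*, which encodes corticotropin-releasing hormone (ENSMUSG00000049796, chr3:19693401-19695396, minus strand), was called in the cortex at PWK 28 alone. WT values were 140, 144, 178 and 184 and KI values 135, 60.8, 104 and 88.9, all below WT, with a difference of -0.77 ± 0.23, a fold of 0.586 (adjusted p = 0.0328). It was not called without KI replicate 3 or 4 or without any of the 4 WT libraries, with an adjusted p of up to 0.0899. The hippocampus at that age gave 27.0 to 37.8 in WT and 17.0 to 27.4 in KI, a difference of -0.63 with an adjusted p of 0.0851.

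*Nts*, the neurotensin precursor (ENSMUSG00000019890, chr10:102481756-102490486, minus strand), fell in the hippocampus at PWK 14. WT values were 111, 155, 147 and 112 and KI values 85.2, 72.0, 69.5 and 92.6, with no overlap, a difference of -0.70 ± 0.18 and a fold of 0.614 (adjusted p = 0.0272). It was not called without KI replicate 2 or 3 or WT replicate 2 or 3, with an adjusted p of up to 0.0854. At PWK 28 the groups overlapped, and the difference of -0.28 had an adjusted p of 0.414.

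*Cck*, the cholecystokinin precursor (ENSMUSG00000032532, chr9:121489824-121495694, minus strand), went in opposite directions in the 2 regions. In the cortex at PWK 28 WT values were 5345, 7147, 7278 and 6450 and KI values 15708, 7961, 13205 and 12307, all above WT, with a difference of 0.88 ± 0.18, a fold of 1.83 (adjusted p = 0.00688). At PWK 14 the cortical difference was 0.25 (adjusted p = 0.319). In the hippocampus at PWK 14 WT values were 4541, 5028, 4498 and 5328 and KI values 3096, 3940, 4277 and 3998, a difference of -0.35 ± 0.10 (adjusted p = 0.0481). At PWK 28 the difference was -0.25 ± 0.07 (adjusted p = 0.0368), with 3912 to 4810 in WT and 3318 to 3969 in KI, which overlap. Neither hippocampal call held in every fit that left out a library: at PWK 14 it was lost without KI replicate 2 or 4 or any WT library (adjusted p up to 0.128), and at PWK 28 without KI replicate 1, 2 or 3 or WT replicate 2 or 4 (adjusted p up to 0.0933).

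Counted by library rather than by test, 4 and 6 of the 10 genes did not overlap between genotypes in the cortex at PWK 14 and 28, where 14.2% and 25.8% of all genes did not. In the hippocampus the counts were 6 and 5, against 23.8% and 21.5%. At PWK 1 and 7 they were 0 and 2 in the cortex, against 3.15% and 4.62%, and 1 and 1 in the hippocampus, against 3.26% and 3.87%. Within the KI cortex at PWK 28, replicate 1 held the highest *Npy* (10571), *Gal* (372), *Tac2* (638) and *Cck* (15708) and the lowest *Cartpt* (1.98). Replicate 2 held the lowest *Npy* (2990), *Gal* (37.0), *Tac2* (169) and *Cck* (7961) and the highest *Cartpt* (18.2). At PWK 14 replicate 1 again held the highest *Npy* (3477), *Gal* (42.2), *Tac2* (231) and *Cck* (9865) and the lowest *Cartpt* (12.9) of the KI cortices, and the highest *Npy*, *Gal* and *Penk* of the KI hippocampi. Replicate numbers at 2 ages belong to different mice, and the labels do not say whether equal numbers in the 2 regions mark the same mouse.

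Whether the KI effect differed between regions was tested as an interaction. At PWK 14 it was larger in the hippocampus for 3 of the 10 genes, against 2.85% of all genes called: *Npy* by 2.47 (adjusted p = 0.00521), *Penk* by 3.12 (adjusted p = 0.0118) and *Tac2* by 1.62 (adjusted p = 0.0128). At PWK 28, where 4.57% of all genes were called, 2 of the 10 were: *Penk*, higher by 2.32 in the hippocampus (adjusted p = 0.000463), and *Cck*, lower by 1.13 (difference -1.13, adjusted p = 0.00587). Without KI cortex replicate 2 at PWK 28, 4 of the 10 and 8.82% of all genes were called, with *Gal* at -3.34 (adjusted p = 0.0358) and *Cartpt* at 2.04 (adjusted p = 0.0197) added. Without KI hippocampus replicate 3 at PWK 28 *Tac1* was called (0.85, adjusted p = 0.0282). At PWK 14 *Nts* was called without KI cortex replicate 1 (-1.68, adjusted p = 0.0117) and *Cartpt* without KI hippocampus replicate 3 (1.90, adjusted p = 0.0295). At PWK 1 and 7 none of the 10 was called, where the shares of all genes were 0% and 0.00543%, and at PWK 1, 668 genes but none of the 10 had an unadjusted p under 0.05.

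Between PWK 7 and 14 the KI effect changed in the hippocampus for 5 of the 10 genes, against 10.3% of all genes. It rose for *Npy* by 3.59 (adjusted p = 4.46e-05), *Gal* by 4.12 (adjusted p = 0.00948), *Penk* by 2.98 (adjusted p = 3.49e-05) and *Tac2* by 1.29 (adjusted p = 0.00727), and it fell by 1.01 for *Nts* (adjusted p = 0.0371). The *Nts* call was lost in 10 of 16 fits that left out a library (adjusted p 0.0594 to 0.0781), namely KI or WT replicate 2 or 3 at PWK 14, KI replicate 1, 3 or 4 and WT replicate 1, 2 or 4 at PWK 7. Without KI replicate 2 at PWK 14, *Pdyn* was called (0.85, adjusted p = 0.0168). In the cortex 2 of the 10 were called, against 3.18%: *Npy*, up by 0.89 (adjusted p = 0.00929), and *Cartpt*, where the effect fell by 2.24 (adjusted p = 0.000827). Without KI cortex replicate 1 at PWK 7, *Gal* was called too (4.43, adjusted p = 0.0242). From PWK 14 to 28 limma called none of the 10 and 0% of all genes in either region, and at an unadjusted p under 0.05 it gave 2770 genes with 6 of the 10 in the cortex and 2274 genes with 4 of the 10 in the hippocampus. The change in *Npy* was 1.26 in the cortex (adjusted p = 0.141) and -0.86 in the hippocampus (adjusted p = 0.377). Single libraries bore on these 2: cortical *Npy* was called without KI replicate 1 at PWK 14 (1.43, adjusted p = 0.0432) or KI replicate 2 at PWK 28 (1.61, adjusted p = 0.00303), and hippocampal *Npy* without KI replicate 4 at PWK 14 (-1.25, adjusted p = 0.0200). Without KI cortex replicate 2 at PWK 28, *Tac2*, *Cartpt* and *Cck* were called too, 4 of the 10 against 4.47% of all genes, and *Tac2* was called without KI cortex replicate 1 at PWK 14 (1.67, adjusted p = 0.0431), when 2.73% of all genes were.

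**Figure D4:**
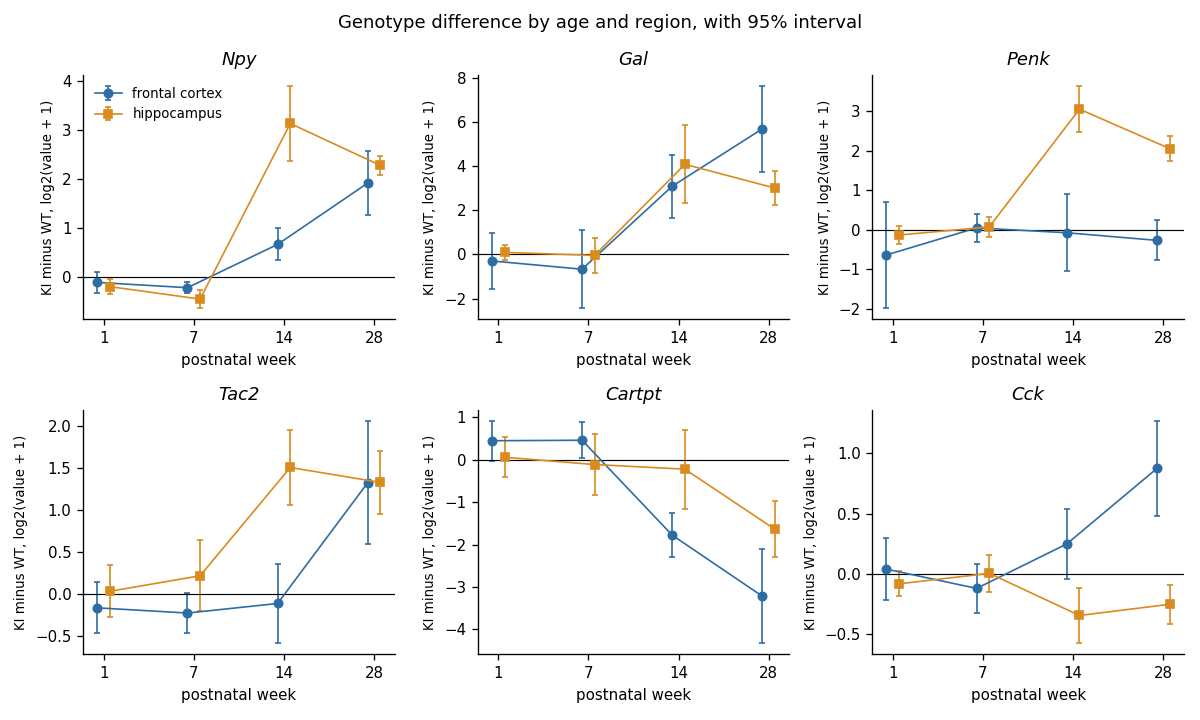
KI minus WT difference (log2 of normalized value + 1) with its 95% interval at PWK 1, 7, 14 and 28 in cortex and hippocampus for *Npy*, *Gal*, *Penk*, *Tac2*, *Cartpt* and *Cck*. No difference was called at PWK 1 or 7. At PWK 14 the regions were called different for *Npy*, *Penk* and *Tac2* alone of these genes, with hippocampal *Penk* at 3.05 and cortical *Penk* at -0.07.

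The levels of the 10 genes in WT tissue were ordered per kilobase of gene model, so that long and short transcripts could be compared. In the WT cortex at PWK 28 the mean normalized value per kilobase was 5023 for *Cck* and 2936 for *Npy*, followed by *Penk* (1181), *Pdyn* (273), *Tac1* (127), *Crh* (122), *Tac2* (115), *Cartpt* (54.5), *Nts* (25.6) and *Gal* (4.73). The library ranges of *Tac1*, *Crh* and *Tac2* overlapped from each to the next in this order, as did those of *Cartpt* and *Nts*, and the other neighbours were separate. In the WT hippocampus at PWK 28 the order was *Cck* (3268), *Npy* (1313), *Penk* (339), *Nts* (137), *Pdyn* (114), *Tac1* (40.8), *Tac2* (35.1), *Crh* (25.5), *Cartpt* (24.3) and *Gal* (11.0), with overlap between *Nts* and *Pdyn*, between *Tac1* and *Tac2* and between *Crh* and *Cartpt*. In the KI cortex at PWK 28 *Npy* (12209) stood above *Cck* (9422) in mean, and in the KI hippocampus *Npy* was at 11755 at PWK 14 and 6410 at PWK 28. Over all 16 groups the highest means of *Npy*, as normalized values, were in the KI cortex at PWK 28 (6910), the KI hippocampus at PWK 14 (6653) and PWK 28 (3628) and the KI cortex at PWK 14 (2457), each overlapping the next, and these 4 were followed by the WT cortex at PWK 7 (1888).

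Most of the 10 genes were lower in WT hippocampus than in WT cortex. At PWK 14 all 10 were called between regions, against 34.6% of all genes, with *Nts* (3.91) and *Gal* (2.58) higher in the hippocampus and the other 8 lower, from -0.35 for *Cck* to -2.25 for *Crh*. At PWK 28 the call was made for 9 of 10, against 37.8%, *Gal* (1.65, adjusted p = 0.116) being the exception. At PWK 7 the count was 10 of 10 against 40.8%, and at PWK 1 it was 8 of 10 against 34.7%, when *Cck* was higher in the hippocampus by 0.33. *Penk* and *Tac1* were the genes not called at PWK 1, with WT cortex replicate 1 at the striatal sum given above, and without it they were higher in the hippocampus by 0.67 and 0.42 (adjusted p = 0.000952 and 0.00711).

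With age in WT mice, 5 of 10 genes were called in the cortex and 8 of 10 in the hippocampus between PWK 1 and 7, against 65.3% and 61.3% of all genes. *Nts* fell most, by 3.74 in the cortex and 3.33 in the hippocampus, where its mean went from 1160 ± 100 to 118 ± 37.9 (SD, n = 4). Hippocampal *Gal* fell by 2.26, from 43.7 ± 2.77 to 8.77 ± 3.06, while cortical *Npy* rose by 1.24 (adjusted p = 2.5e-07) and cortical *Cck* by 1.29. *Penk* rose in both regions, by 1.06 in the hippocampus and 2.03 in the cortex, or 2.86 there without WT replicate 1 at PWK 1, the library with the high striatal sum. From PWK 7 to 14 only *Npy* in the cortex was called (-0.32, adjusted p = 0.0191), against 5.32% of all genes, and none of the 10 in the hippocampus, against 1.99%. This *Npy* call was lost without WT replicate 1 at PWK 14 or WT replicate 2, 3 or 4 at PWK 7, when 0 of the 10 were called. From PWK 14 to 28 *Penk* (1.16), *Crh* (1.10), *Tac1* (0.80), *Nts* (1.77) and *Pdyn* (0.36) rose in the cortex, 5 of 10 against 12%. The *Pdyn* call was lost without WT replicate 3 or 4 at PWK 14 or WT replicate 1 or 3 at PWK 28 (adjusted p up to 0.0699). Over the same ages the striatal sum of the WT cortex went from 6707 to 7818 up to 8453 to 14096. With a striatal marker score as a covariate, an alternative added after seeing the data, *Penk* and *Crh* were called. The limma adjusted p in that fit was 0.247 for *Pdyn*, 0.144 for *Tac1* and 0.179 for *Nts*, whose differences stayed positive. The striatal sums of these ages did not overlap, so the fit cannot separate them from age. The part of striatal tissue in the lost calls was not tested. In the hippocampus none of the 10 was called from PWK 14 to 28, against 8.11%, and without WT replicate 3 at PWK 14 *Cartpt* (0.92, adjusted p = 0.0469) and *Crh* (1.40, adjusted p = 0.0268) were.

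Of 21 receptor and binding-protein genes for these peptides, 18 were in the table. In the cortex 4 rose and 1 fell at PWK 14 and 4 rose and 4 fell at PWK 28, against 5.18% and 22.2% of all genes called. In the hippocampus 3 rose and 3 fell and then 4 rose and 3 fell, against 15.6% and 15.8%. *Crhbp*, whose product binds CRH outside the cell, rose in all 4 comparisons, by 1.17 and 1.98 in the cortex and by 1.27 and 1.18 in the hippocampus, the younger age first. *Oprd1*, the delta receptor for enkephalins, also rose in all 4, by 0.60, 0.61, 0.68 and 0.82. *Crhr1*, the main brain CRH receptor, fell in the cortex at PWK 28 by 1.52 and in the hippocampus by 0.88 and 0.57, and its cortical value at PWK 14 was -0.86 (adjusted p = 0.075). *Npy1r*, the Y1 receptor, fell by 0.86 and 0.72 in the cortex and by 0.43 in the hippocampus at PWK 14. Of the genes for neurotensin receptors, *Ntsr1* rose in the cortex by 0.93 and 0.86, with values of -1.24 (adjusted p = 0.0602) and -0.50 (adjusted p = 0.291) in the hippocampus. *Sort1*, which encodes the sorting receptor sortilin, fell by 0.53 in the cortex at PWK 28 and by 0.50 and 0.19 in the hippocampus.

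Among 16 genes of precursor processing and dense-core granules, 2 rose and 2 fell in the cortex at PWK 14 and 6 rose and 3 fell at PWK 28. In the hippocampus 4 rose and 3 fell at PWK 14 and 7 rose and 3 fell at PWK 28. All genes were called at 5.18% and 22.2% in the cortex and at 15.6% and 15.8% in the hippocampus, the younger age first. *Chga*, the granule protein chromogranin A, rose in all 4 comparisons, by 1.04, 1.74, 1.30 and 0.77 taking the cortex first and, within a region, the younger age first. *Pcsk1*, which encodes a convertase that cuts precursors, fell in the cortex by 1.05 and 1.66 and in the hippocampus at PWK 28 by 0.73. *Vgf*, a granin induced by neuronal activity, rose in the cortex at PWK 28 by 0.98 and in the hippocampus by 1.33 and 0.69.

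Of 30 other neuropeptide precursor genes, 15 were in the table, and 1 rose and 4 fell in the cortex at PWK 14 and 3 rose and 3 fell at PWK 28. In the hippocampus 2 rose and 1 fell at PWK 14 and 1 rose and 1 fell at PWK 28. The shares of all genes called were 5.18% and 22.2% in the cortex and 15.6% and 15.8% in the hippocampus, the younger age first. *Trh*, the precursor of thyrotropin-releasing hormone, rose in the hippocampus by 5.23 (adjusted p = 0.00651) and 2.57 (adjusted p = 0.0102), more than any of the 10 genes at PWK 14. *Grp*, the gastrin-releasing peptide precursor, fell in the cortex by 1.75 and 2.59 and rose in the hippocampus at PWK 14 by 1.11. *Sst*, the somatostatin precursor of interneurons, rose in the cortex by 0.32 and 1.22, and *Cort*, the related cortistatin precursor, fell in the hippocampus by 1.75 and 0.94.

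Markers of cell types that make or surround these peptides moved in part beside them, and their part in the results was not tested. Counts of them stand against 5.18% and 22.2% of all genes called in the cortex at PWK 14 and 28. The shares in the hippocampus were 15.6% and 15.8%. Of 12 interneuron genes, 4 rose and 2 fell in the cortex at PWK 28, with *Gad2* up by 1.15 and *Lamp5*, a marker of a cortical class rich in neuropeptide Y, down by 1.86, and the summed value was 45104 to 50408 in WT and 49403 to 64157 in KI. In the hippocampus at PWK 28, beside the rises of *Npy*, *Penk* and *Tac2*, 4 rose and 1 fell, and the sums did not overlap, at 34464 to 36427 in WT and 37323 to 43661 in KI. This interneuron list includes the peptide precursors *Sst* and *Vip*. With each of its genes weighted alike, its mean log2 value at PWK 28 was 10.69 in WT and 10.76 in KI in the cortex. In the hippocampus it was 10.24 and 10.37. At PWK 14 it was 10.29 in WT and 10.22 in KI in the hippocampus, and 10.52 and 10.57 in the cortex. The hippocampal interneuron sums overlapped at PWK 14, at 35553 to 38754 in WT and 35118 to 38751 in KI. Of 8 dentate granule cell genes, 1 rose and 3 fell in the hippocampus at PWK 14, when *Npy* and *Penk* were highest, and their sum was 12496 to 17982 in WT and 8715 to 14469 in KI. Of 7 glutamatergic genes, 1 rose and 2 fell there, with sums of 187592 to 243043 in WT and 131701 to 213706 in KI. At PWK 28 the hippocampal sums of these lists overlapped. For granule cell genes they were 12239 to 13211 in WT and 11132 to 12915 in KI. For glutamatergic genes they were 162365 to 177401 in WT and 160234 to 189139 in KI. *Gfap*, a marker of reactive astrocytes, was higher in all 4 comparisons, by 1.56, 1.52, 2.75 and 2.00, and the sum of 8 astrocyte genes at PWK 14 in the hippocampus was 140174 to 166759 in WT and 212287 to 313799 in KI. None of the 6 choroid plexus markers was called in these 4 comparisons. Of 7 microglial genes, 4 rose in the hippocampus at PWK 28. Of 14 immediate early genes, 2 rose and 2 fell in the cortex at each late age. In the hippocampus 3 and 2 rose and none fell, among them *Bdnf*, by 1.73 and 1.09. The sum of the 14 in the cortex was 19751 to 26681 in WT and 11007 to 60126 in KI at PWK 14. At PWK 28 it was 36029 to 39898 in WT and 10130 to 69818 in KI. The hippocampal sum was 15473 to 22518 in WT and 18217 to 47289 in KI at PWK 14. At PWK 28 it was 22574 to 26798 in WT and 11793 to 49378 in KI. With each of the 14 weighted alike, the mean log2 value in the cortex at PWK 14 was 9.96 in WT and 9.78 in KI. At PWK 28 in the cortex it was 10.59 and 10.05. In the hippocampus it was 9.57 and 10.49 at PWK 14, and 10.16 and 9.97 at PWK 28, WT first.

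Over the 32 KI libraries, taken as the log2 difference from the WT mean of the same region and age, the genes most like *Npy* were *Trak2* (Pearson r = 0.968), *Glra1* (0.957) and *Prss23* (0.954). For *Gal* they were *Gldn* (0.951), *Crhbp* (0.949) and *Col5a3* (0.936), and for *Penk* they were *Acvr1c* (0.916), *Bcl3* (0.912) and *Drd1* (0.897). *Cartpt* was most like *Dcbld2* (0.878), *Tac2* most like *Prkar1b* (0.906) and *Cck* most like *Atp6v1g2* and *Gfra2* (each 0.880). The highest r was lower for *Pdyn* (*Pard6b*, 0.781), *Tac1* (*Adcy5*, 0.751), *Crh* (*Hey2*, 0.703) and *Nts* (*Pofut1*, 0.692). Among the 10 genes themselves r was 0.89 for *Npy* with *Tac2*, 0.83 for *Npy* with *Gal*, 0.75 for *Npy* with *Penk* and -0.76 for *Gal* with *Cartpt*. These points share region, age, dissection and the WT means they were set against, so the values describe likeness only.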

How the data were processed

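RNA was sequenced from frontal cortex and hippocampus of KI and WT mice at 4 ages (64 libraries, 4 per group). Per the labels, libraries were made with a stranded mRNA kit (the study's methods name a stranded total RNA kit, so how RNA was selected is unsettled), reads were quantified with Salmon 0.11.2 against GRCm38, and counts were normalized with DESeq2 1.19.11 in R 3.6.0 (the study's methods name other versions). The deposited values are a normalized signal that the authors made by dividing estimated counts by library size and transcript length factors. They are not whole numbers (23.5% to 49.1% of low values lay within 0.1 of one, where chance gives 20%), so no count model was run. Differences were tested with limma 3.58.1 (R 4.3.3, trend and Benjamini-Hochberg adjustment over all genes) on log2(value + 1), after dropping genes whose mean in the compared libraries was under 1. Each comparison used only its own groups, and interactions used 4 groups. Identifiers of 18420 genes matched GENCODE and 12 did not. The 10 genes and all gene lists were chosen with earlier results of these data known. All 10 genes were named. From each other list up to 6 genes were picked, those called in the most of the 4 late KI comparisons (ties by the smallest p). Only some of the picked genes are named, not always in order of rank. The 3 protein-coding genes most like each member were found, and at least the one with the highest r is given. A library is 1 region of 1 mouse, so p-values measure the spread between mice and dissections. Region comparisons share mice and treat their libraries as separate. Alternatives were another pseudocount, no filter, total-sum scaling, 1 fit of all 64 libraries, leaving out each library, a replicate block and a striatal marker score. Genes near 0, such as *Gal* in the WT cortex, are imprecise, and depth per library is unknown, so no counting interval was given.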

Additional observations from a re-analysis of the deposited data

Results flagged for a closer look

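Within groups of 4 libraries, a library lying far from the other 3 (by Dixon's test of the gap over the range at the 95% level) was found for 11 of the 160 combinations of gene and group, where chance alone flags about 1 in 20. For *Npy* these were KI cortex replicate 1 at PWK 14 (3477, the others 2090 to 2140), KI hippocampus replicate 3 at PWK 7 (447, the others 528 to 545), KI hippocampus replicate 2 at PWK 28 (2922, the others 3823 to 3889) and WT hippocampus replicate 3 at PWK 28 (683, the others 755 to 769). For *Gal* they were KI cortex replicate 1 at PWK 7 (5.47, the others listed at 0), KI hippocampus replicate 1 at PWK 14 (1274, the others 74.4 to 148) and KI hippocampus replicate 2 at PWK 28 (41.6, the others 82.7 to 90.5). WT cortex replicate 1 at PWK 1 stood apart in *Penk* (1418, the others 125 to 150) and *Tac1* (521, the others 199 to 237). WT hippocampus replicate 4 at PWK 1 was low in *Pdyn* (436, the others 482 to 485), and WT cortex replicate 1 at PWK 7 was high in *Cck* (8051, the others 6003 to 6268). KI hippocampus replicate 2 at PWK 28 was thus apart in both *Npy* and *Gal*.

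The KI effect differed between groups, by a limma interaction test, for 12 pairings of gene and contrast. Hippocampus minus cortex at PWK 14 it was 2.47 for *Npy*, 3.12 for *Penk* and 1.62 for *Tac2*, and at PWK 28 it was 2.32 for *Penk* and -1.13 for *Cck*. PWK 14 minus PWK 7 in the cortex it was 0.89 for *Npy* and -2.24 for *Cartpt*. In the hippocampus over the same ages it was 3.59 for *Npy*, 4.12 for *Gal*, 2.98 for *Penk*, 1.29 for *Tac2* and -1.01 for *Nts*.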

How the results depend on the processing

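Of the differences of the 10 genes called in either fit, 1 reversed: *Penk* between WT regions at PWK 1 was -0.16, and ran from -0.49 to 0.67 when each library was left out, with 0.67 without WT cortex replicate 1. In the late KI comparisons 6 further differences, called in none of the fits concerned, changed sign under some alternative: *Penk*, *Tac1* and *Tac2* (cortex, PWK 14), *Nts* (cortex, PWK 28), *Cartpt* (hippocampus, PWK 14) and *Pdyn* (hippocampus, PWK 28). The number of the 10 called between KI and WT was 2 to 4 in the cortex at PWK 14 and 5 to 7 at PWK 28, and 4 to 6 and 5 to 6 in the hippocampus, when each library was left out, and 0 throughout at PWK 1 and 7. In the same late fits all genes called numbered 339 to 1001 and 2782 to 5090 in the cortex and 1456 to 3205 and 1881 to 2880 in the hippocampus. The counts of the region interaction were 3 to 4 at PWK 14, 2 to 4 at PWK 28 and 0 before. Beside them 242 to 800, 559 to 1624 and 0 to 1 of all genes were called. Those of the age interaction were 2 to 3 (cortex) and 4 to 5 (hippocampus) for PWK 14 minus 7, beside 378 to 885 and 1355 to 2452 of all genes. For PWK 28 minus 14 they were 0 to 4 and 0 to 1, beside 0 to 822 and 0 to 156. In WT mice the counts were 5 to 6, 0 to 1 and 4 to 5 for the 3 age steps in the cortex. All genes called there numbered 11335 to 11934, 522 to 951 and 1290 to 1936. In the hippocampus the counts were 8 to 9, 0 to 0 and 0 to 2, beside 10606 to 11112, 104 to 332 and 561 to 2172 of all genes. Between regions they were 7 to 10, 8 to 10, 10 to 10 and 9 to 10 from PWK 1 to 28. All genes called between regions numbered 5307 to 7015, 6679 to 7517, 5576 to 6088 and 6172 to 6829. Total-sum scaling gave 5 of 10 between WT regions at PWK 1 where 8 were called, losing *Npy*, *Pdyn* and *Tac2*, so that 3 higher and 5 lower became 3 and 2, and the striatal marker score gave 2 of 10 in the WT cortex from PWK 14 to 28 where 5 were called (487 against 2213 of all genes). In 1 fit of all 64 libraries the adjusted p of *Nts* at PWK 14 and *Cck* at PWK 28 in the hippocampus was 0.194 and 0.186, and *Pdyn* (0.000739) and *Crh* (0.0410) were called there at PWK 14. All genes called in the cortex at PWK 14 numbered 951, against 1952 in that fit and 564 with the striatal score, and at PWK 28 they numbered 4081 against 6114. Pairing by replicate number was not established: deviations of KI and WT libraries correlated at 0.026 on average for the same number (10 of 32 over 0.1) and -0.0091 for different numbers. Those of the 2 regions correlated at 0.140 (17 of 32 over 0.1) and -0.046 (12 of 96), a hint from the data of shared mice under equal numbers. With the number as a replicate block, *Nts* and *Cck* in the hippocampus at PWK 14 had an adjusted p of 0.0854 and 0.0563, leaving 4 of 6 calls, *Cck* between WT regions at PWK 7 had 0.0762, and no other call of the 10 genes in the KI or WT region comparisons was lost. The causes of these changes were not tested. Depth is unknown, and the values near 0 limit *Gal* in the cortex most.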
